A study of Caenorhabditis elegans with 12 samples.

Results

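The 10 genes described here encode enzymes assigned to the repeating steps of mitochondrial fatty acid beta-oxidation in Caenorhabditis elegans. They are the acyl-CoA dehydrogenase genes acdh-2, acdh-7, acdh-8, acdh-10 and acdh-12, the hydratase genes ech-2 and ech-7, the 3-hydroxyacyl-CoA dehydrogenase gene hacd-1, and the thiolase genes kat-1 and acaa-2. They were looked up by gene symbol, and 10 of the 10 symbols were found among the 14505 genes in the deposited tables.

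Beta-oxidation shortens a fatty acid from its coenzyme A end. An acyl-CoA dehydrogenase introduces a double bond, an enoyl-CoA hydratase adds water to it, a 3-hydroxyacyl-CoA dehydrogenase oxidises the resulting alcohol, and a thiolase splits off acetyl-CoA, after which the shortened chain enters the cycle again. The dehydrogenases differ in the chain length they accept and pass their electrons to the electron transfer flavoprotein. In the worm much of the stored fat lies in the intestine and the hypodermis, and mutants of kat-1 are known for raised fat stores.

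Polyadenylated RNA was sequenced from whole animals at the L4 larval stage, the last before adulthood, grown at 20 °C on Escherichia coli OP50-1. The strain with both transgenes (CA-AAK-2;CA-CRTC-1, WBM66, called the double strain) carried constitutively active AAK-2, which is a catalytic AMP-activated protein kinase (AMPK) subunit, and CRTC-1 bearing the changes S76A and S179A. CRTC-1 is the worm CREB-regulated transcriptional coactivator, a target of AMPK. The CA-CRTC-1 strain (WBM55) carried the altered CRTC-1 alone, the CA-AAK-2 strain (WBM60) the active AAK-2 alone, and N2 was the wild type. Each strain had 3 libraries, described as biological replicates. The promoters that drive the transgenes, and any marker or selection that the transgenic strains share, are not given in the labels used here. The series title concerns neuronal CRTC-1 and systemic mitochondrial metabolism. The design asks what each transgene changes alone and together, and whether the CA-CRTC-1 difference is the same with and without CA-AAK-2.

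The libraries held 30891634 to 48994152 counted reads, and 1 read stood for 0.0178 to 0.0285 CPM, counts per 1e+06 reads as normalised by the authors. aak-2 averaged 2992 CPM in the double strain, 63.7 CPM in CA-CRTC-1 animals, 2529.6 CPM in CA-AAK-2 animals and 61.7 CPM in N2, and crtc-1 averaged 362, 189, 20.0 and 20.5 CPM in the same strains, as labelled. All markers found in the tables, in 8 lists for tissues, germ cells and the moult, were detected in each strain, with 0 of them at 0 in a whole strain. The summed level of 8 intestinal markers was 5162 to 5729 CPM in the double strain, 4660 to 5586 CPM in CA-CRTC-1 animals, 3433 to 4023 CPM in CA-AAK-2 animals and 4044 to 4385 CPM in N2; against N2, 2 of them were called higher and 1 lower in the double strain and 1 was called lower in CA-AAK-2 animals. The 5 markers of hypodermis and cuticle summed to 1245 to 1404 CPM in the double strain, 1096 to 1209 CPM in CA-CRTC-1 animals, 671 to 763 CPM in CA-AAK-2 animals and 707 to 757 CPM in N2, with 3, 2 and 2 called higher and, in CA-AAK-2 animals, 1 lower. The 4 pharynx markers summed to 327 to 397 CPM in CA-AAK-2 animals, with 2 called lower, and to 540 to 614 CPM in N2. They summed to 514 to 609 CPM in the double strain and 660 to 707 CPM in CA-CRTC-1 animals, with 0 called in either. The 5 muscle markers summed to 8920 to 9568 CPM in the double strain, with 1 called lower. Their sums were 10071 to 11522 CPM in CA-CRTC-1 animals, 8681 to 9555 CPM in CA-AAK-2 animals and 10294 to 11367 CPM in N2. The 5 neuron markers summed to 178 to 203 CPM in the double strain, 147 to 174 CPM in CA-CRTC-1 animals, 140 to 168 CPM in CA-AAK-2 animals and 135 to 150 CPM in N2. Of the 5 neuron and 5 sperm markers, limma and edgeR each called 0 against N2; in limma the unadjusted p was under 0.05 for 5 in the double strain, 1 in CA-CRTC-1 animals and 2 in CA-AAK-2 animals. The 6 moult markers were called higher than N2 in each transgenic strain, with sums of 525 to 1300 CPM in the double strain, 1106 to 1317 CPM in CA-CRTC-1 animals, 729 to 935 CPM in CA-AAK-2 animals and 225 to 263 CPM in N2. The 6 germ cell and oocyte markers summed to 1499 to 2168 CPM in the double strain, 1133 to 1176 CPM in CA-CRTC-1 animals, 1433 to 1482 CPM in CA-AAK-2 animals and 891 to 951 CPM in N2, with 5, 4 and 4 of them called higher than N2 in the transgenic strains in that order. The part of these differences in the results below was not tested, and in RNA from whole animals fewer cells of a type and less RNA per cell cannot be told apart.

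Both thiolase genes, for the last step of the cycle, were lowest in the double strain, and acaa-2 fell there relative to each of the other strains. Over the 10 genes together the double strain had a summed level of 817 ± 20.5 CPM, against 1028 ± 7.46 CPM in CA-CRTC-1 animals, 1030.0 ± 15.7 CPM in CA-AAK-2 animals and 1018 ± 19.7 CPM in N2 (SD, n = 3 libraries each). That is -19.8% relative to N2. The 2 thiolases together stood at 293 ± 7.49 CPM in the double strain, against 425 ± 1.24 CPM in CA-CRTC-1 animals, 429 ± 11.4 CPM in CA-AAK-2 animals and 439 ± 12.5 CPM in N2. The 5 dehydrogenases summed to 384 ± 17.1 CPM in the double strain, to 446 ± 18.1 CPM in CA-CRTC-1 animals, to 476 ± 16.1 CPM in CA-AAK-2 animals and to 462 ± 12.6 CPM in N2. The 2 hydratases summed to 63.5 ± 6.01 CPM in the double strain, 84.7 ± 4.60 CPM in CA-CRTC-1 animals, 73.0 ± 1.34 CPM in CA-AAK-2 animals and 65.5 ± 4.57 CPM in N2, so that the double strain was again lowest, but below N2 by less than the spread between libraries. hacd-1 was above N2 in both strains with CA-CRTC-1.

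**Figure D1:**
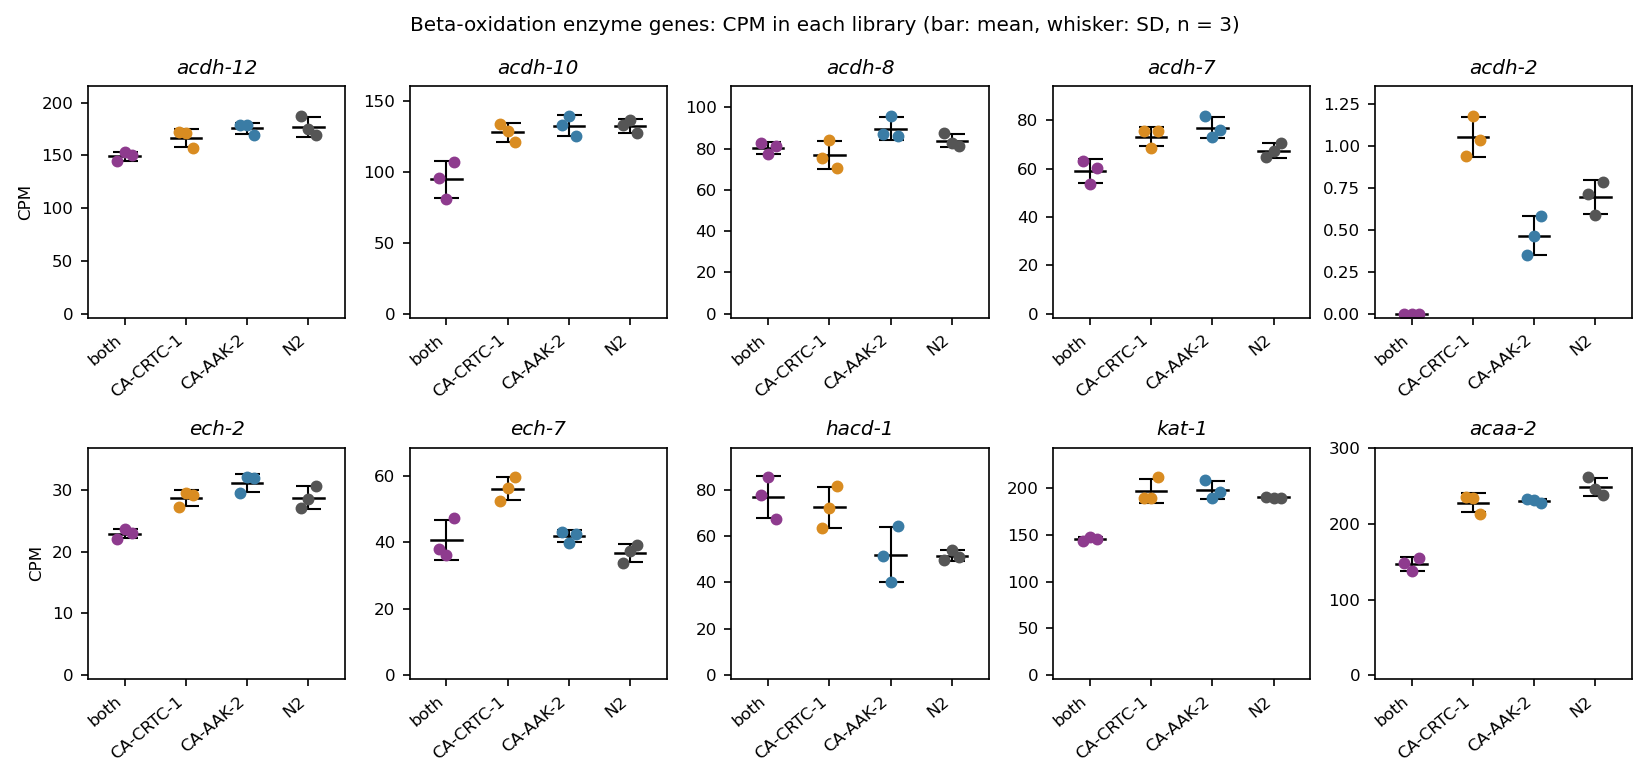
CPM of each of the 10 genes (vertical axes, each starting at 0) in the 3 libraries of the double strain (both), the CA-CRTC-1 strain, the CA-AAK-2 strain and N2. Points are libraries, bars are means and whiskers are SD (n = 3); acaa-2 lies at 137 to 155 CPM in the double strain and at 214 to 262 CPM in the other 9 libraries, and acdh-2 has 0 reads in the double strain.

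Differences were tested with limma on log2(CPM + 0.5), adjusted by the Benjamini-Hochberg method over all genes tested, and are given as log2 differences ± SE. A gene was called, and is said here to have risen or fallen, at an adjusted p of at most 0.01 with at least a 1.5-fold difference, among genes averaging at least 5 CPM in the libraries compared. By that filter 9 of the 10 genes were tested, and acdh-2, at about 1 CPM or less, was not.

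Among the thiolases, acaa-2 (WBGene00009952, chromosome III, 13344937 to 13346860, plus strand) encodes the worm counterpart of human ACAA2, a mitochondrial 3-ketoacyl-CoA thiolase. It had 149, 137 and 155 CPM in the double strain, 236, 234 and 214 CPM in CA-CRTC-1 animals, 233, 232 and 228 CPM in CA-AAK-2 animals and 262, 247 and 238 CPM in N2. The double strain did not overlap any other strain. acaa-2 fell in the double strain relative to N2 (-0.76 ± 0.07, adjusted p = 3.53e-07), relative to the CA-AAK-2 strain (-0.65 ± 0.07, adjusted p = 2.96e-06) and relative to the CA-CRTC-1 strain (-0.63 ± 0.07, adjusted p = 7.95e-06). The last call was lost without replicate 2 of the double strain, where the difference was -0.58. In the strains with 1 transgene acaa-2 stood at -0.13 ± 0.07 (CA-CRTC-1, adjusted p = 0.175) and -0.11 ± 0.07 (CA-AAK-2, adjusted p = 0.198) relative to N2. After rescaling by the median ratio of genes these were -0.23 (adjusted p = 0.0276) and -0.23 (adjusted p = 0.018), and in edgeR -0.22 (adjusted p = 0.0415) and -0.21 (adjusted p = 0.0305), in the same order, all short of 1.5-fold.

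kat-1 (WBGene00002183, chromosome II, 7073814 to 7075511, plus strand) encodes a 3-ketoacyl-CoA thiolase related to the acetyl-CoA acetyltransferases. Its libraries held 144, 148 and 145 CPM in the double strain, 189, 189 and 212 CPM in CA-CRTC-1 animals, 209, 189.6 and 196 CPM in CA-AAK-2 animals and 191, 190.1 and 190.1 CPM in N2. The double strain again lay below all the other libraries. Its log2 difference was -0.38 ± 0.06 from N2 (adjusted p = 0.000111), -0.44 ± 0.06 from the CA-AAK-2 strain (adjusted p = 7.12e-05) and -0.43 ± 0.06 from the CA-CRTC-1 strain (adjusted p = 0.000136), each short of 1.5-fold. The next gene on the same strand, T02G5.7, starts 103 bases downstream and encodes another thiolase of the acetyl-CoA acetyltransferase type; reads that could match both genes were not examined. It had 87.3 ± 2.92 CPM in the double strain and 157 ± 8.31 CPM in N2 and fell by 0.84 on the log2 scale (SE 0.08, adjusted p = 7.64e-07).

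The dehydrogenase of the longest chains, acdh-12 (WBGene00017125, chromosome II, 7192429 to 7195641, minus strand), is the counterpart of the human very long chain enzyme ACADVL. It had 145, 153 and 150.2 CPM in the double strain, 172, 171 and 157 CPM in CA-CRTC-1 animals, 178.96, 178 and 169.6 CPM in CA-AAK-2 animals and 188, 175 and 169 CPM in N2. Every library of the double strain was below every other one. The log2 difference was -0.25 ± 0.06 from N2 (adjusted p = 0.00367), -0.23 ± 0.06 from the CA-AAK-2 strain (adjusted p = 0.00956) and -0.16 ± 0.06 from the CA-CRTC-1 strain (adjusted p = 0.061), none of them reaching 1.5-fold. acdh-12 shares 80 exon bases with E04F6.4 on the opposite strand, and the library kit keeps no strand, so reads there could come from either gene.

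acdh-7, acdh-8 and acdh-10 are related genes of the medium chain type, like human ACADM; reads that could match more than 1 of them were not examined. acdh-10 (WBGene00020366, chromosome X, 17213144 to 17214903, minus strand) lies 115 bases from acdh-7 (WBGene00020812, chromosome X, 17215018 to 17217105, minus strand). acdh-10 had 96.1, 81.3 and 107 CPM in the double strain, 134, 129 and 121 CPM in CA-CRTC-1 animals, 133, 139.9 and 125 CPM in CA-AAK-2 animals and 134, 137 and 127 CPM in N2. The double strain did not overlap the others, and its libraries were the most spread of the 4 strains (SD 13.1 CPM). The log2 difference was -0.49 ± 0.09 from N2 (adjusted p = 0.000275) and -0.49 ± 0.09 from the CA-AAK-2 strain (adjusted p = 0.00058), short of 1.5-fold as deposited. From N2 it passed 1.5-fold after rescaling the libraries by median ratio over genes (-0.66) and in edgeR on the recovered reads (-0.64). From the CA-CRTC-1 strain the difference was -0.44 ± 0.09 (adjusted p = 0.00158).

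acdh-7 had 63.3, 53.8 and 60.33 CPM in the double strain, 75.6, 68.7 and 75.6 CPM in CA-CRTC-1 animals, 82.0, 73.1 and 76.1 CPM in CA-AAK-2 animals and 64.8, 67.2 and 70.6 CPM in N2. Here the CA-AAK-2 libraries were above those of N2 and the double strain was below both. The double strain stood at -0.19 ± 0.08 relative to N2 (adjusted p = 0.0408) and at -0.38 ± 0.08 relative to the CA-AAK-2 strain (adjusted p = 0.00134), and the CA-AAK-2 strain at 0.19 ± 0.08 relative to N2 (adjusted p = 0.0541). Its neighbour acdh-10 had no such difference between CA-AAK-2 and N2, whose libraries overlapped.

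acdh-8 (WBGene00019406, chromosome II, 5794495 to 5796185, plus strand) was the tested dehydrogenase with the smallest difference between the double strain and N2. Its values were 83.0, 77.3 and 81.1 CPM in the double strain, 75.7, 84.2 and 70.6 CPM in CA-CRTC-1 animals, 87.2, 95.9 and 85.9 CPM in CA-AAK-2 animals and 87.4, 83.0 and 81.1 CPM in N2. The double strain and N2 overlapped, at a difference of -0.06 with a 95% interval of -0.22 to 0.10 (adjusted p = 0.518). The CA-AAK-2 libraries lay above those of the double strain, which was at -0.15 ± 0.07 relative to them (adjusted p = 0.123).

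acdh-2 (WBGene00015894, chromosome II, 5544778 to 5547492, minus strand), a relative of the short and branched chain dehydrogenases, was the least abundant of the 10 genes and had the widest gap between strains. It had 0, 0 and 0 reads in the double strain, 40, 65 and 44 reads in CA-CRTC-1 animals, 15, 26 and 21 reads in CA-AAK-2 animals and 25, 33 and 44 reads in N2. In CPM the libraries with reads held 0.942, 1.18 and 1.04 in CA-CRTC-1 animals, 0.350, 0.464 and 0.585 in CA-AAK-2 animals and 0.713, 0.589 and 0.785 in N2. Set against a floor of 3 reads over the 3 double-strain libraries together, 0.0225 CPM, acdh-2 was at least 30.8-fold lower in the double strain than in N2, at least 20.4-fold lower than in CA-AAK-2 animals and at least 47.3-fold lower than in CA-CRTC-1 animals. The floor covers counting error alone, and the fitted log2 differences of this gene depend on the added 0.5 CPM.

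With no filter on low values, acdh-2 was called lower in the double strain than in N2 by limma (adjusted p = 8.49e-06, where 25% of 14505 genes were called) and by edgeR on the recovered reads (adjusted p = 1.4e-06, 24.3% called). The edgeR fit without a filter was added after the 0 reads had been seen. The same 2 fits called it lower than in CA-AAK-2 animals (adjusted p = 0.000236 in limma, 13.7% of genes called, and 1.19e-05 in edgeR, 13.9%) and than in CA-CRTC-1 animals (adjusted p = 3.27e-06 in limma, 9.55%, and 1.99e-06 in edgeR, 9.91%). Neither fit called it in the strains with 1 transgene relative to N2, with adjusted p = 0.0805 in limma and 0.16 in edgeR for CA-CRTC-1 and 0.121 in limma and 0.0667 in edgeR for CA-AAK-2, where both fits called 11.3% of genes for CA-CRTC-1 and 12.9% (limma) or 12.8% (edgeR) for CA-AAK-2. Their libraries did not overlap those of N2, being higher in CA-CRTC-1 animals and lower in CA-AAK-2 animals.

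acdh-2 overlaps 1 other gene, ins-13, an insulin-like peptide gene on the same strand, with which it shares 87 exon bases. ins-13 also had 0, 0 and 0 reads in the double strain, with 25, 37 and 18 reads in CA-CRTC-1 animals, 12, 21 and 6 reads in CA-AAK-2 animals and 12, 27 and 26 reads in N2. Both genes of the overlapping pair thus had 0 reads in the double strain and reads in each of the other 9 libraries. Whether the DNA of the double strain differs at this pair of genes was not tested. The fold differences and tests of acdh-2 therefore describe read counts and are not assigned to a change of expression. The other 9 genes within 5 measured genes on either side had reads in each of the 12 libraries, with 14 to 898 reads a gene in the double strain, 20 to 2165 in CA-CRTC-1 animals, 4 to 1310 in CA-AAK-2 animals and 3 to 1369 in N2. Reads in the shared exon bases cannot be assigned to 1 gene of the pair. acdh-2 was the 1 gene of 14505 with 0 reads in all the double-strain libraries and at least 10 reads in each of the other 9, a criterion chosen after its values were seen. The same criterion picked 1 gene for the CA-CRTC-1 strain (2L52.1), 0 for the CA-AAK-2 strain and 2 for N2 (btb-6 and sea-1). With at least 20 reads asked for instead, it picked 0 genes for the double strain, since acdh-2 had 15 reads in CA-AAK-2 replicate 1. ins-13 missed the cutoff of 10 reads through the 6 reads of CA-AAK-2 replicate 3. That acdh-2 was the 1 gene picked thus depends on the cutoff.

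**Figure D2:**
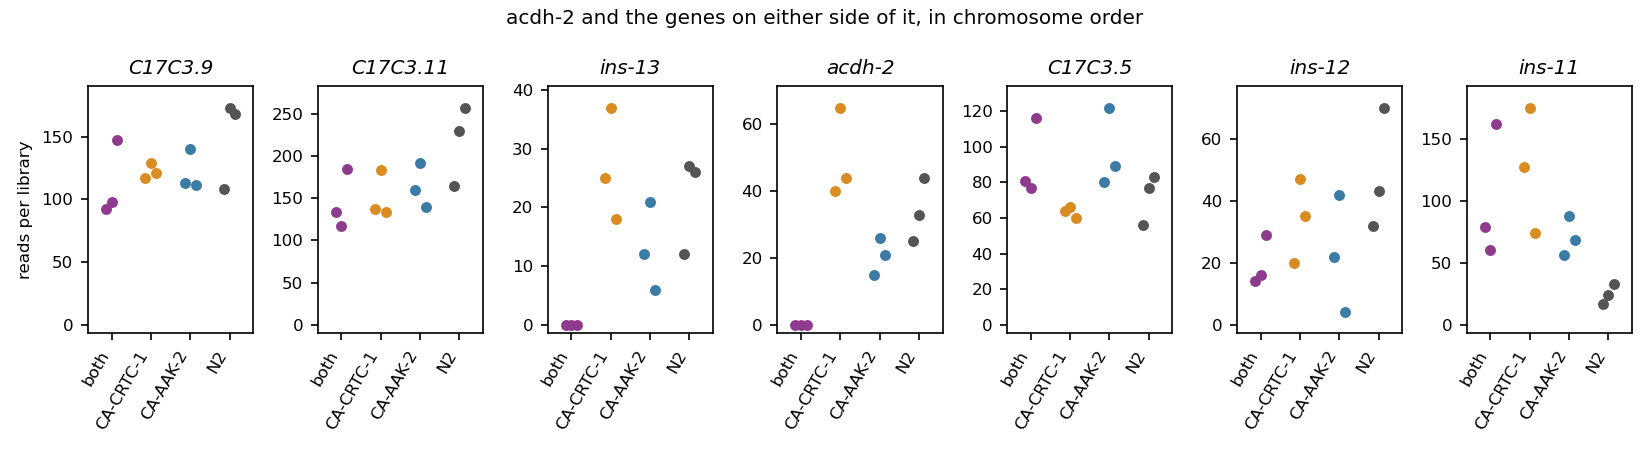
Reads per library (vertical axes) of acdh-2, the overlapping ins-13 and the nearest measured genes on both sides, in chromosome order from left to right, for the double strain (both), the CA-CRTC-1 strain, the CA-AAK-2 strain and N2. Each point is 1 library; ins-13 and acdh-2 have 0 reads in the 3 double-strain libraries, and the genes next to the pair have reads in every library.

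Of the hydratase genes, ech-7 (WBGene00001156, chromosome I, 14367616 to 14369773, minus strand), of the enoyl-CoA hydratase family, was the member that rose with CA-CRTC-1 alone. It had 37.9, 36.3 and 47.4 CPM in the double strain, 52.5, 56.2 and 59.5 CPM in CA-CRTC-1 animals, 43.0, 39.9 and 42.5 CPM in CA-AAK-2 animals and 33.7, 37.2 and 39.2 CPM in N2. The CA-CRTC-1 libraries were above all the others, and those of the double strain overlapped both CA-AAK-2 and N2. In the CA-CRTC-1 strain the log2 difference from N2 was 0.61 ± 0.10, a 1.52-fold rise (adjusted p = 0.000335). With so small a margin over 1.5-fold the call was lost on leaving out CA-CRTC-1 replicate 3 (0.56) or, instead, N2 replicate 1 (0.55), under median-ratio scaling (0.50) and in edgeR (0.52).

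The double strain stood at -0.47 ± 0.10 for ech-7 relative to the CA-CRTC-1 strain (adjusted p = 0.00186), which became a call without double-strain replicate 3 (-0.59), and at -0.05 ± 0.10 relative to the CA-AAK-2 strain (adjusted p = 0.706). Relative to N2 it was at 0.13 ± 0.10 as deposited (adjusted p = 0.249), and this sign turned under median-ratio scaling (-0.03) and in edgeR (-0.01).

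ech-2 (WBGene00001151, chromosome IV, 11854993 to 11856351, minus strand), of the same family, had a different order. Its libraries held 22.1, 23.7 and 23.1 CPM in the double strain, 27.2, 29.6 and 29.2 CPM in CA-CRTC-1 animals, 29.5, 32.1 and 32.0 CPM in CA-AAK-2 animals and 27.1, 28.6 and 30.7 CPM in N2. The double strain lay below all the others, and the 2 strains with 1 transgene overlapped N2. The log2 difference of the double strain was -0.32 ± 0.08 from N2 (adjusted p = 0.00229), -0.43 ± 0.08 from the CA-AAK-2 strain (adjusted p = 0.000471) and -0.31 ± 0.08 from the CA-CRTC-1 strain (adjusted p = 0.00506), each short of 1.5-fold. ech-2 shares 6 exon bases with tag-30 on the same strand.

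hacd-1 (WBGene00019978, chromosome V, 1460369 to 1461613, plus strand), of the 3-hydroxyacyl-CoA dehydrogenase family, was the tested gene whose libraries lay above those of N2 in both strains that carry CA-CRTC-1. It had 77.5, 85.4 and 67.4 CPM in the double strain, 63.6, 72.2 and 81.4 CPM in CA-CRTC-1 animals, 51.4, 40.4 and 64.3 CPM in CA-AAK-2 animals and 49.7, 54.1 and 51.0 CPM in N2. Libraries with CA-CRTC-1 did not overlap N2, while those of the CA-AAK-2 strain lay on both sides of it. The log2 difference from N2 was 0.56 ± 0.14 in the double strain (adjusted p = 0.00303), 0.48 ± 0.14 in CA-CRTC-1 animals (adjusted p = 0.0206) and -0.01 ± 0.14 in CA-AAK-2 animals (adjusted p = 0.948). The double strain was at 0.58 ± 0.14 relative to the CA-AAK-2 strain (adjusted p = 0.0051).

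hacd-1 was thus not called in any comparison as deposited, but it was close to the threshold. From N2 it was called in the double strain without double-strain replicate 3 (0.65) or N2 replicate 2 (0.60). From the CA-AAK-2 strain it was called without CA-AAK-2 replicate 3 (0.74) or double-strain replicate 3 (0.67), and with libraries scaled to equal totals (0.60). Other settings moved it away from a call. From N2 the double strain was at 0.39 under median-ratio scaling (adjusted p = 0.0184) and 0.42 in edgeR (adjusted p = 0.0126). With 1 library left out, the lowest difference of the double strain was 0.48 from N2 and 0.41 from the CA-AAK-2 strain.

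Counted over the 9 tested genes, the double strain against N2 had 1 called lower, acaa-2, and 0 called higher, in a comparison in which 22.5% of 10594 genes were called, 6.87% lower and 15.6% higher. At an adjusted p of 0.05 with no fold threshold, 6 of the 9 were lower and 1 was higher, against 19.2% lower and 40.9% higher of all genes tested. The groups did not overlap for 6 genes lower and 1 higher, against 21.6% lower and 44.7% higher of all genes. The median of the 9 was -0.25, beside 0.14 for all genes tested. Among all genes the larger share was therefore higher than N2, and among these 9 the larger number was lower.

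That background depends on scaling. Rescaling by the median ratio moved the median of all genes by -0.17 in the double strain, -0.12 in CA-AAK-2 animals and -0.10 in CA-CRTC-1 animals relative to N2, to -0.03, -0.01 and -0.03 in the same order, and the median of the 9 genes in the double strain was then -0.42. The calls over all genes were 1655 higher and 728 lower in the double strain as deposited, against 1071 and 1157 after rescaling, 850 and 456 in CA-AAK-2 animals, against 518 and 701, and 696 and 228 in CA-CRTC-1 animals, against 574 and 357. Differences of the double strain from N2 that moved by more than 1.5 times were, after rescaling, -0.36 for acdh-7, -0.23 for acdh-8, -0.42 for acdh-12 and -0.49 for ech-2, lower than as deposited in each case, besides the change of sign of ech-7. kat-1 stood at -0.55 and hacd-1 at 0.39 on that scale. Relative to N2, the summed level of the double strain was -33.3% as deposited and -40.8% after that rescaling for the thiolases, -16.9% and -26.2% for the dehydrogenases, and -3.07% and -14.0% for the hydratases.

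In the CA-CRTC-1 strain against N2, 1 of 9 was called, ech-7, higher, where 8.79% of 10509 genes were called and 6.62% were called higher. At an adjusted p of 0.05 ech-7 and hacd-1 were higher and 0 were lower, beside 19% and 7.61% of all genes, and the median was -0.0043, beside 0.07 for all genes. The 2 non-overlapping higher genes and 1 lower gene, acaa-2, compare with 34% and 15.2% of all genes. In the CA-AAK-2 strain against N2, limma called 0 of 9 and edgeR called 0, where limma called 12.6% of 10368 genes. At an adjusted p of 0.05 limma had 0 of 9, beside 33.7% higher and 14.8% lower of all genes. The unadjusted p was under 0.05 for 1 of the 9, acdh-7, and the median was 0.06, beside 0.11 for all genes. After rescaling, acaa-2 was lower at an adjusted p of 0.05 in each of these comparisons, acdh-7 stood at 0.07 in CA-AAK-2 animals (adjusted p = 0.479), and the medians of the 9 were -0.06 in CA-AAK-2 animals and -0.11 in CA-CRTC-1 animals. As deposited, 2 genes in CA-AAK-2 animals, acdh-7 and ech-7, lay higher without overlap and 1, acaa-2, lower, against 38.8% and 18.7% of all genes.

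**Figure D3:**
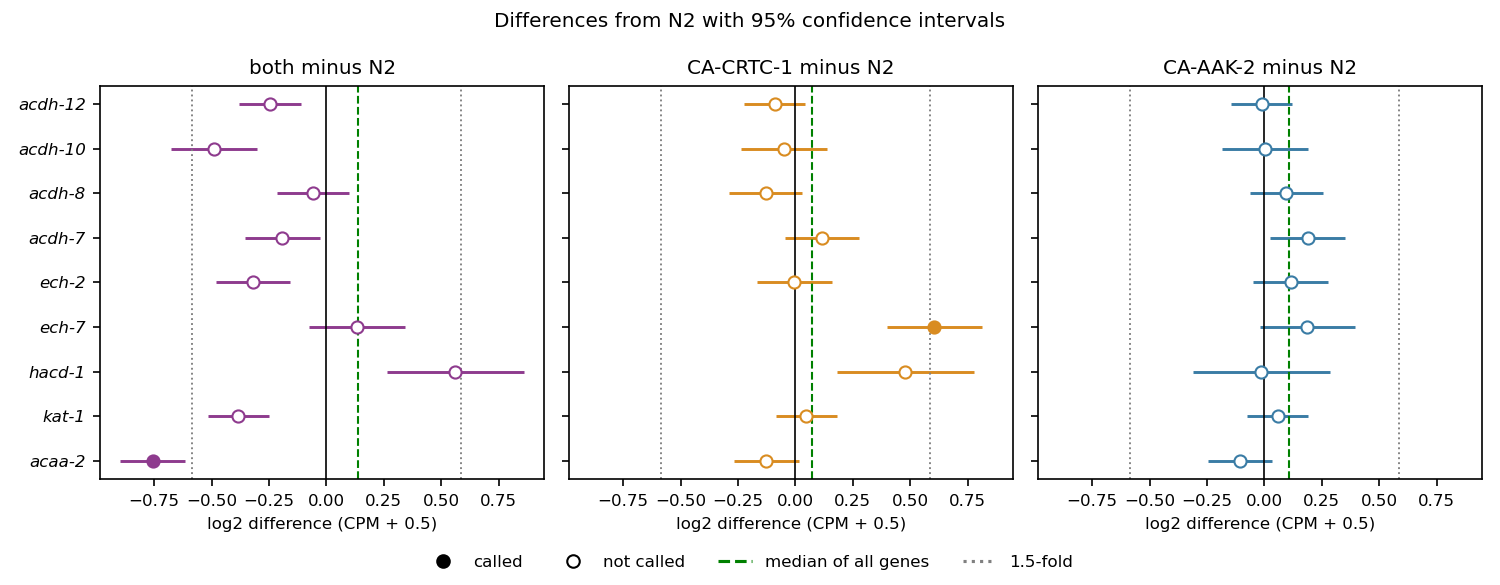
Log2 differences from N2 (horizontal axis, on CPM + 0.5) of the 9 tested genes in the double strain (both), the CA-CRTC-1 strain and the CA-AAK-2 strain, with 95% confidence intervals. Filled points were called, dotted lines mark 1.5-fold and the dashed line is the median of all genes; acaa-2 at -0.76 in the double strain and ech-7 at 0.61 in CA-CRTC-1 animals are the filled points.

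Against the strains with 1 transgene, acaa-2 was again the called gene. Of 9 tested, 1 was called in the double strain against CA-AAK-2, lower, where 11.3% of 10607 genes were called and 3.63% were called lower, and 1 against CA-CRTC-1, lower, where 8.85% of 10727 were called and 4.17% lower. At an adjusted p of 0.05 the double strain was lower for 6 genes and higher for 1 (hacd-1) against CA-AAK-2, beside 16.1% lower and 19.3% higher of all genes, and lower for 6 against CA-CRTC-1, beside 15% of all genes. The medians of the 9 were -0.38 against CA-AAK-2 and -0.31 against CA-CRTC-1, beside 0.02 and 0.07 for all genes. Non-overlapping and lower were 7 genes in each comparison, beside 19.5% of all genes against CA-AAK-2 and 18.3% against CA-CRTC-1, and hacd-1 was higher without overlap against CA-AAK-2, beside 22.6%. These comparisons share the double-strain libraries with each other and with the comparison against N2, so they are not separate evidence.

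The CA-CRTC-1 difference was compared with and without CA-AAK-2 by the interaction term, which is the double strain minus the CA-AAK-2 strain, less the CA-CRTC-1 strain minus N2. crtc-1 itself was at 362 ± 15.6 CPM in the double strain and 189 ± 16.0 CPM in the CA-CRTC-1 strain, so the level of the transgene and the presence of CA-AAK-2 cannot be told apart in this term. The interaction was negative for 8 of the 9 genes (7 under either other scaling, where acdh-8 turned positive), with a median of -0.44, beside -0.08 for all genes. It was called for 1 of 9, ech-7 (-0.66 ± 0.14, adjusted p = 0.00369), where 8.73% of 10576 genes were called and 4.82% called negative. At an adjusted p of 0.05 with no fold threshold it was negative for 6 of 9, beside 12% of all genes. They were acaa-2 (-0.52 ± 0.09, adjusted p = 0.00113), kat-1 (-0.49 ± 0.09, adjusted p = 0.00129), acdh-7 (-0.50 ± 0.11, adjusted p = 0.00486), ech-2 (-0.43 ± 0.11, adjusted p = 0.0116), acdh-10 (-0.44 ± 0.12, adjusted p = 0.022) and ech-7.

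The interaction had different parts in these genes. For ech-7 the CA-CRTC-1 difference was -0.05 ± 0.10 with CA-AAK-2 and 0.61 ± 0.10 without it. For acaa-2 it was -0.65 ± 0.07 with CA-AAK-2 and -0.13 ± 0.07 without it, and for kat-1 -0.44 ± 0.06 with CA-AAK-2 and 0.05 ± 0.06 without it. For hacd-1 the 2 differences were 0.58 ± 0.14 with CA-AAK-2 and 0.48 ± 0.14 without it, with an interaction of 0.10 and a 95% interval of -0.32 to 0.52 (adjusted p = 0.752). acdh-8 (-0.03 ± 0.10, adjusted p = 0.878) and acdh-12 (-0.14 ± 0.09, adjusted p = 0.263) did not pass either. acdh-2, fitted with no filter, had a negative interaction called by limma (adjusted p = 0.000711, where 8.26% of genes were called) and by edgeR (adjusted p = 7.49e-05, 8.31%).

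The ech-7 interaction was close to the threshold. The call was lost on leaving out 1 of CA-CRTC-1 replicate 2 or 3, CA-AAK-2 replicate 1, double-strain replicate 1, or N2 replicate 1 or 2, with differences of -0.67 to -0.60 and adjusted p = 0.0101 to 0.0133 in these fits.

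**Figure D4:**
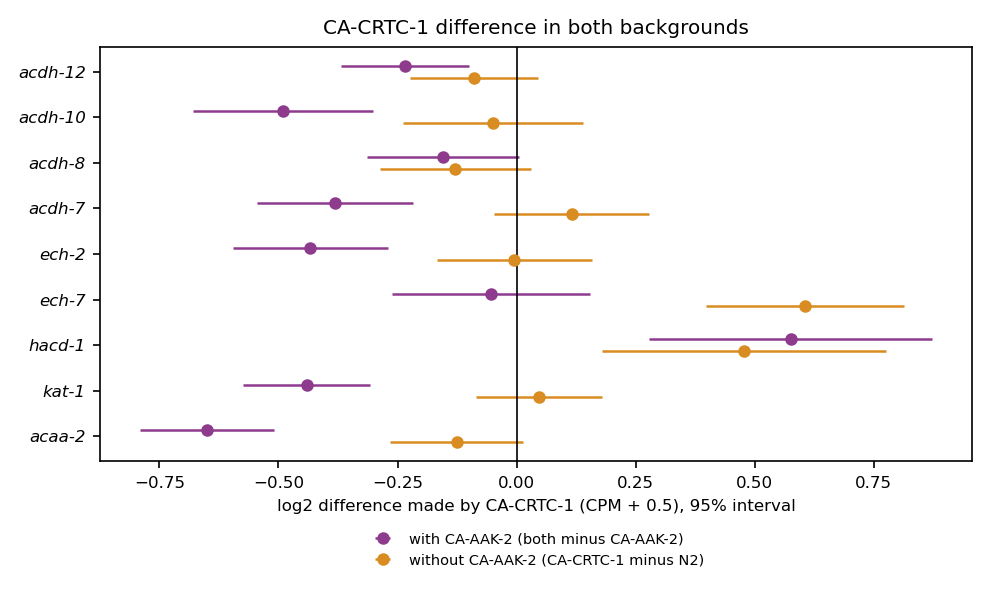
Log2 difference that comes with CA-CRTC-1 (horizontal axis, on CPM + 0.5, with 95% confidence intervals) for the 9 tested genes, with CA-AAK-2 (double strain minus CA-AAK-2) and without it (CA-CRTC-1 minus N2). The 2 sets of points share no library; the intervals lie apart for acaa-2, kat-1, ech-7, ech-2, acdh-7 and acdh-10 and overlap for hacd-1, acdh-8 and acdh-12.

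Levels of different genes were compared per kilobase of exon. The order in the double strain was kat-1 (109.9 CPM per kb), acaa-2 (107), hacd-1 (75.1), acdh-12 (73.1), acdh-10 (68.6), acdh-8 (59.5), ech-7 (52.3), acdh-7 (44.0), ech-2 (21.6) and acdh-2 (0). In N2 it was acaa-2 (181), kat-1 (143), acdh-10 (95.8), acdh-12 (86.8), acdh-8 (62.0), hacd-1 (50.5), acdh-7 (50.3), ech-7 (47.4), ech-2 (27.03) and acdh-2 (0.372). The thiolases led in both, and hacd-1 stood above acdh-12, acdh-10 and acdh-8 in the double strain and below them in N2. Neighbours in N2 whose libraries overlapped were hacd-1, acdh-7 and ech-7, and the other neighbours lay apart, acdh-10 and acdh-12 only just. In the double strain kat-1 overlapped acaa-2, and each neighbouring pair of libraries from hacd-1 down to acdh-7 overlapped, so that order is not resolved.

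The other genes of the pathway are described from lists that were chosen with earlier results of these data known, so the counts are a description. In the double strain against N2, 4 of 7 tested genes of fatty acid entry fell and 0 rose (median -0.62), where 6.87% of all genes tested were called lower and 15.6% higher: acs-2, an acyl-CoA synthetase (-3.71 ± 0.16), the carnitine palmitoyltransferase family genes cpt-5 (-2.60 ± 0.18) and cpt-4 (-1.48 ± 0.13), and dif-1, a carnitine/acylcarnitine carrier (-0.62 ± 0.06). Of 9 other acyl-CoA dehydrogenase genes 1 fell and 0 rose (median -0.17); it was acdh-1, a short chain enzyme used in propionate breakdown, with 978 ± 124 CPM in the double strain and 2746 ± 109 CPM in N2 (-1.497 ± 0.10). Of 12 other hydratase, hydroxyacyl dehydrogenase and thiolase genes 4 fell and 0 rose (median -0.39). They were ech-6, an enoyl-CoA hydratase (-1.23 ± 0.06), B0272.3, a 3-hydroxyacyl-CoA dehydrogenase (-0.9998 ± 0.06), T02G5.7 (above) and ech-1.1, a trifunctional protein alpha type gene (-0.64 ± 0.10). T02G5.4, also among the 12 and not called (-0.29 ± 0.10), has 0 coding bases in the annotation used here. A further gene of this list, ech-9, was below the filter of 5 CPM, so it was not tested and is outside these counts. It had 6.19 ± 0.61 CPM in the double strain, 5.62 ± 0.32 CPM in CA-CRTC-1 animals, 2.46 ± 0.99 CPM in CA-AAK-2 animals and 1.48 ± 0.30 CPM in N2.

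B0272.3, another gene of the hydroxyacyl step, had 43.0 ± 1.56 CPM in the double strain and 86.5 ± 2.50 CPM in N2, a fall, while hacd-1 of the same step stood at 0.56. Of the 3 genes that carry electrons away from the dehydrogenases, F27D4.1, the flavoprotein alpha subunit, fell (-0.62 ± 0.06), F23C8.5, the beta subunit, stood at -0.52 ± 0.07 and let-721, the quinone oxidoreductase, at -0.21 ± 0.06. Of 10 peroxisomal genes 7 fell and 1 rose (median -0.77), among them daf-22, the peroxisomal thiolase (-1.0999 ± 0.08), and dhs-28, a hydroxyacyl dehydrogenase (-0.78 ± 0.07). Of 8 regulators 2 nuclear receptor genes fell, nhr-10 (-0.67 ± 0.09) and nhr-80 (-0.60 ± 0.13), and 0 rose (median -0.04). The differences of the 8 ran from -0.67 to 0.39, and 4 of them were negative, so the regulators did not go 1 way. With median-ratio scaling and in edgeR the counts that moved by more than 1.5 times were those of the other dehydrogenases and of electron transfer, each 2 lower, by addition of acdh-9 and F23C8.5.

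The same lists against the CA-AAK-2 strain had 3 of 6 entry genes, 2 of 9 other dehydrogenases (acdh-1 and acdh-9), 3 of 12 other hydratase and thiolase genes, 2 of 3 electron transfer genes and 5 of 10 peroxisomal genes called lower in the double strain, where 3.63% of all genes were called lower, with 1 peroxisomal gene, acox-1.5, called higher. In the strains with 1 transgene against N2, 0 of the 9 other dehydrogenases and 0 of the 12 other hydratase and thiolase genes were called by limma, which called 8.79% of all genes for CA-CRTC-1 and 12.6% for CA-AAK-2, with an unadjusted p under 0.05 for 5 and 6 of them in CA-CRTC-1 animals and for 2 and 3 in CA-AAK-2 animals. edgeR called 0 of the dehydrogenases and 1 of the other genes, ech-1.1, lower in each of these strains. Of 7 entry genes both tests called 1 higher and 1 lower in CA-CRTC-1 animals and 2 lower in CA-AAK-2 animals. Of 10 peroxisomal genes limma called 1 higher in CA-CRTC-1 animals and 0 in CA-AAK-2 animals. There edgeR called 2 lower in CA-CRTC-1 animals and 1 lower in CA-AAK-2 animals. Electron transfer genes and regulators had 0 calls in both strains by both tests. The level of ech-9 (above) was too low for both tests in these comparisons.

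**Figure D5:**
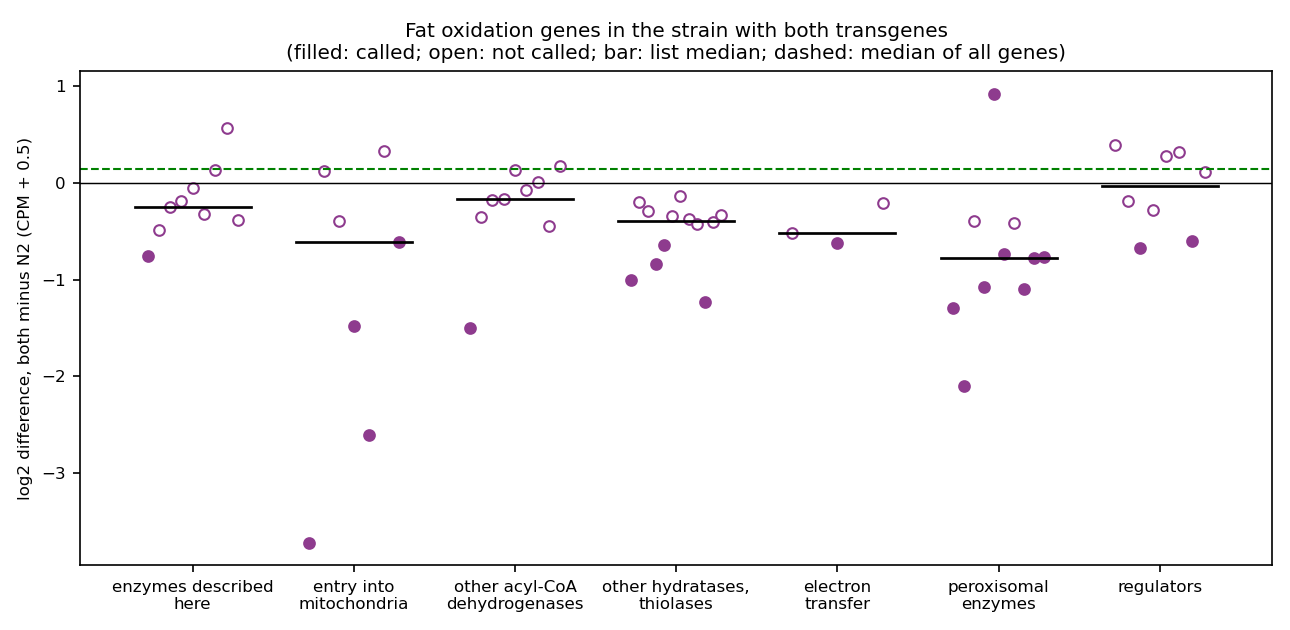
Log2 difference of the double strain (both) from N2 (vertical axis, on CPM + 0.5) for each tested gene of the 9 enzymes described here and of 6 lists of related genes. Each point is a gene, filled where called, thick bars are list medians and the dashed line is the median of all genes at 0.14; the list medians run from -0.77 for peroxisomal enzymes to -0.04 for regulators.

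For the 2 genes called in at least 1 comparison, the named genes of most similar profile were sought among 6311 genes, by the root mean square distance of log2 values over the 12 libraries, each centred on its own mean. The nearest to acaa-2 were mel-32, a serine hydroxymethyltransferase gene (0.0637), psme-3, a proteasome activator gene (0.0771), and gcst-1, of the glycine cleavage system (0.082), where the median distance of all genes searched was 0.388. mel-32 averaged 419.8 CPM in the double strain, 714 CPM in CA-CRTC-1 animals, 706 CPM in CA-AAK-2 animals and 743 CPM in N2. The nearest to ech-7 were tsp-9, a tetraspanin gene (0.104), lron-3 (0.105) and olrn-1 (0.11), with a median distance of 0.303. tsp-9 averaged 11.96 CPM in the double strain, 15.4 CPM in CA-CRTC-1 animals, 12.1 CPM in CA-AAK-2 animals and 11.8 CPM in N2.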

How the data were processed

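Per the series text, the deposited CPM were scaled by the authors in edgeR to correct for library depth and RNA composition. In edgeR on the recovered reads, scaled anew, the median of all genes in the double strain against N2 was -0.0054, beside 0.14 as deposited. The deposited values thus keep a shift that this scaling removes, and its cause was not tested. The submitters' processing notes name CASAVA 1.8.2, cutadapt, TopHat2 2.0.8 and HTSeq, and the HTSeq overlap mode is not given in the sources used here. Per the labels' protocols each library used 4 micrograms of total RNA (integrity number 10), a kit without strand marking, and 50 cycles from both ends. Both ce6 and WS238 appear in the series text as the build; coordinates here are those of WBcel235, which served only to place genes.

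The tables hold 14508 entries, 72 with a retired identifier; merging 3 repeated names left 14505 genes, 13820 with a symbol. CPM columns sum to 862320 to 902249. Dividing by the value of 1 read gave whole reads for 100% of values within 0.02 reads. Within a strain the 12 pairs of libraries differed by a chi-square per degree of freedom of 8.60 to 80.0, above sampling noise. It was 28.7 to 80.0 in the double strain, 13.4 to 20.6 in CA-CRTC-1 animals, 21.9 to 32.1 in CA-AAK-2 animals and 8.60 to 14.6 in N2. The main fit shares 1 estimate of the spread of a gene over all strains, so it does not follow this difference.

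limma 3.58.1 in R 4.3.3, with a trended prior and all 12 libraries in 1 fit, gave the main test on log2(CPM + 0.5) with no replicate term. Genes needed a mean of 1 CPM over all libraries and 5 CPM over those compared (all 12 for the interaction). p-values measure the spread among these libraries. edgeR 4.0.16 quasi-likelihood on the recovered reads was an alternative and called 2268 genes in the double strain against N2, 938 in CA-CRTC-1 against N2 and 1266 in CA-AAK-2 against N2. The code was tested on simulated counts.

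Members and lists were chosen with earlier results of these data known. The genes named are the 10 genes, up to 4 called genes of each list by adjusted p, the 3 most similar profiles of each called gene, and aak-2 and crtc-1. Named outside this rule, with values already seen, are the overlapping genes ins-13, tag-30 and E04F6.4, the genes 2L52.1, btb-6 and sea-1, and the list members F23C8.5, let-721, acdh-9, ech-9 and T02G5.4.

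Replicate numbers carry no stated meaning. Deviations of same-numbered libraries from their strain means had correlations of 0.252, 0.313 and 0.275 between CA-AAK-2 and the double strain, each over 0.1. By that rule these strains look paired by number, on the evidence of the values alone, and no other pair of strains met it. The main test does not use this pairing, so its SE and p-values for the double strain against CA-AAK-2 and for the interaction leave it out. The replicate block was fitted over all 4 strains, and no paired test of these 2 strains alone was run. Alternatives were pseudocounts of 0.1 and 2 CPM, a filter of 1 CPM, no filter, 2 other scalings, only the groups compared, a constant prior, the replicate block, an adjusted p of 0.05 with no fold threshold, edgeR and each library left out.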

Additional observations from a re-analysis of the deposited data

Results flagged for a closer look

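The CA-CRTC-1 difference of ech-7 was not the same in strains with and without CA-AAK-2 by the test of the difference itself: the interaction was -0.66 (log2, SE 0.14, adjusted p = 0.00369), with a CA-CRTC-1 difference of -0.05 ± 0.10 with CA-AAK-2 and 0.61 ± 0.10 without it. crtc-1 stood at 362 CPM in the double strain and 189 CPM in the CA-CRTC-1 strain, so its level and CA-AAK-2 cannot be told apart here. The call was lost in 6 of the 12 fits with 1 library left out.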

How the results depend on the processing

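Of 1239 values of the 54 tested gene differences under alternatives, 1166 kept their direction and call, 31 gained a call, 11 lost one and 31 changed sign, 0 of the last being called in either fit. Some alternatives cannot change a pairwise difference, only its call. They are the filter of 1 CPM, no filter, the adjusted p of 0.05 with no fold threshold and the constant prior. The groups compared alone, the replicate block and leaving out a library of a strain not compared are also among them. The 1166 therefore include values whose direction was fixed in advance. Most of the gained calls came from the looser rule of an adjusted p of 0.05 with no fold threshold. Counts of called genes moved as follows. CA-CRTC-1 against N2 had 1 as reported, 0 under median-ratio scaling, 0 in edgeR and 2 at an adjusted p of 0.05. The double strain against N2 had 1, and 2 with no filter, with median-ratio scaling and in edgeR, and 7 at 0.05; against CA-AAK-2 it had 1, and 2 with no filter and with equal totals, and 7 at 0.05; against CA-CRTC-1 it had 1, 2 with no filter and 6 at 0.05. The interaction had 1, 2 with no filter and 6 at 0.05. Of all genes, the double strain against N2 had 3632 of 14505 called with no filter and 2228 of 10600 with median-ratio scaling. It had 2268 of 10594 in edgeR and 6357 of 10594 at 0.05. Also at 0.05, 3748 of 10607 were called against CA-AAK-2, 4200 of 10727 against CA-CRTC-1 and 2191 of 10576 for the interaction. Of the 10 genes described here, the added call with no filter was acdh-2 in each case. With 1 library left out the counts ran from 0 to 1 for CA-CRTC-1 against N2, 0 to 0 for CA-AAK-2 against N2, 1 to 2 for the double strain against N2 and against CA-AAK-2, 0 to 2 against CA-CRTC-1 and 0 to 1 for the interaction. The replicate block left every count as reported, 1 for the double strain against CA-AAK-2, and changed no call of acaa-2 (-0.65) there. Sign changes were as follows, first under median-ratio scaling. CA-AAK-2 against N2: acdh-8 -0.023 and, in edgeR, -0.00042; acdh-10 -0.12, with equal totals -0.022 and in edgeR -0.096; ech-2 -0.0038; kat-1 -0.062 and in edgeR -0.041. CA-CRTC-1 against N2: kat-1 -0.055 and in edgeR -0.043. The double strain against N2: ech-7 -0.034 and in edgeR -0.011. The interaction: acdh-8 0.026, with equal totals 0.014 and in edgeR 0.0083. With single libraries left out, the ranges that crossed 0 were, for CA-AAK-2 against N2, acdh-10 -0.036 to 0.044, acdh-12 -0.045 to 0.029 and hacd-1 -0.18 to 0.16, for CA-CRTC-1 against N2, ech-2 -0.047 to 0.043 and kat-1 -0.0068 to 0.074, for the interaction, acdh-8 -0.085 to 0.042 and hacd-1 -0.071 to 0.26, and for the double strain, hacd-1 -0.0050 to 0.17 against CA-CRTC-1 and ech-7 -0.17 to 0.020 against CA-AAK-2. The cause of these changes was not tested. For acdh-2, 0 reads at these depths allow up to 3 reads over the 3 libraries.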
